A study of Mus musculus with 6 samples.

Results

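The genes described here are 32 named genes of cholesterol and fatty acid synthesis and of its control, taken by symbol and not by their measured values. Of these, 31 had a probe set that the platform annotation assigns to that gene alone, out of 12619 genes tested, and each is represented by its brightest such probe set. Acat2, the cytosolic thiolase, had none and is named only. Transcript signals came from 6 mouse expression arrays of MIN6 cells, a mouse insulinoma line that makes insulin. On 3 arrays the cells had been electroporated with an siRNA against TDP-43 (gene Tardbp), a protein that binds RNA, and on 3 with a control siRNA, at 100 pmol in both groups. Both groups are the same cell line, and a knockdown leaves part of the target transcript. Effects of this siRNA on other transcripts cannot be told apart from those of losing TDP-43. Nothing in the labels says that the arrays of a group came from separate cultures, so p-values measure the spread between these arrays, which may be technical.

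Cholesterol is built from acetyl-CoA through the mevalonate pathway. Its enzymes make squalene, close it to lanosterol and trim lanosterol to cholesterol. The transcription factor SREBP2, from Srebf2, acts mainly on these genes, and SREBP1, from Srebf1, mainly on fatty acid synthesis. SCAP carries both out of the endoplasmic reticulum when sterols are low, and INSIG1 holds SCAP back when sterols are plentiful. Fatty acids are made from citrate by ATP citrate lyase, acetyl-CoA carboxylase and fatty acid synthase, and are then elongated and desaturated. In beta cells lipid synthesis supplies membranes and signals that bear on insulin release.

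Median signals of the 6 arrays lay between 72.3 and 80.0 after the scaling to a common mean. With 3 arrays a group, their number sets the precision. Tardbp, the siRNA's target, had signals of 2257, 2249 and 1836 in TDP-43 siRNA arrays, against 3748, 3940 and 3699 in control siRNA arrays. It fell by 0.85 on the log2 scale (SE 0.08, limma adjusted p = 0.00187). Of 10 beta cell markers 8 had a probe set and all 8 were past the filter on low signals. Their summed signal ran between 85462 and 91890 after TDP-43 siRNA, against 85598 to 88434 with control siRNA. With all 6 arrays 94 of the genes tested passed, and without control replicate 3 there were 253. Values without it are given below where they matter.

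None of the 31 lipid synthesis genes passed the threshold of 0.05 for the limma adjusted p, in a comparison where 0.745% of all genes tested did. The smallest adjusted p was 0.137, for Srebf1, and the median was 0.639. At an unadjusted p below 0.05 there were 8 of 31 genes (25.8%), against 12.6% of all genes. Of these, 2 lay higher after TDP-43 siRNA (Hmgcs1 and Elovl5), 6.45% of the 31, where 6.75% of all genes did. The other 6 lay lower (Pmvk, Tm7sf2, Nsdhl, Dhcr7, Srebf1 and Fasn), 19.4% of the 31, where 5.87% of all genes did. The share of lower genes was thus above that of all genes. Whether the list as a whole departs from all genes was not tested. The log2 differences of the 31 genes ran between -0.41 for Pmvk and 0.24 for Hmgcs1, with a median of -0.01 beside a median of 0.02 over all genes. In 20 of the 31 the difference was smaller than 0.15 in either direction.

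The 2 groups of arrays did not overlap for 7 of the 31 genes, against 18.3% of all genes. In 3 of them (Hmgcs1, Sc5d and Elovl5) every TDP-43 siRNA array lay above every control siRNA array, which held for 9.98% of all genes. In 4 (Pmvk, Tm7sf2, Nsdhl and Srebf1) every TDP-43 siRNA array lay below, which held for 8.32% of all genes. As shares of the 31 genes these counts are 9.68% and 12.9%, and nothing is read from so small a distance to the background. In bulk RNA, a transcript present in fewer cells and less of it per cell cannot be told apart.

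Intervals give the range of differences that the 6 arrays allow. The 95% confidence interval of the difference lay inside -0.5 to 0.5 on the log2 scale for 28 of the 31 genes, as it did for 70.3% of all genes. It lay inside -1 to 1 for all 31, and for 95.7% of all genes. The narrowest interval was that of Acly, which reached 0.10 to each side, and the widest that of Mvk, at 0.386. The genes whose interval reached past 0.5 in one direction were Pmvk, Dhcr7 and Mvk.

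**Figure D1:**
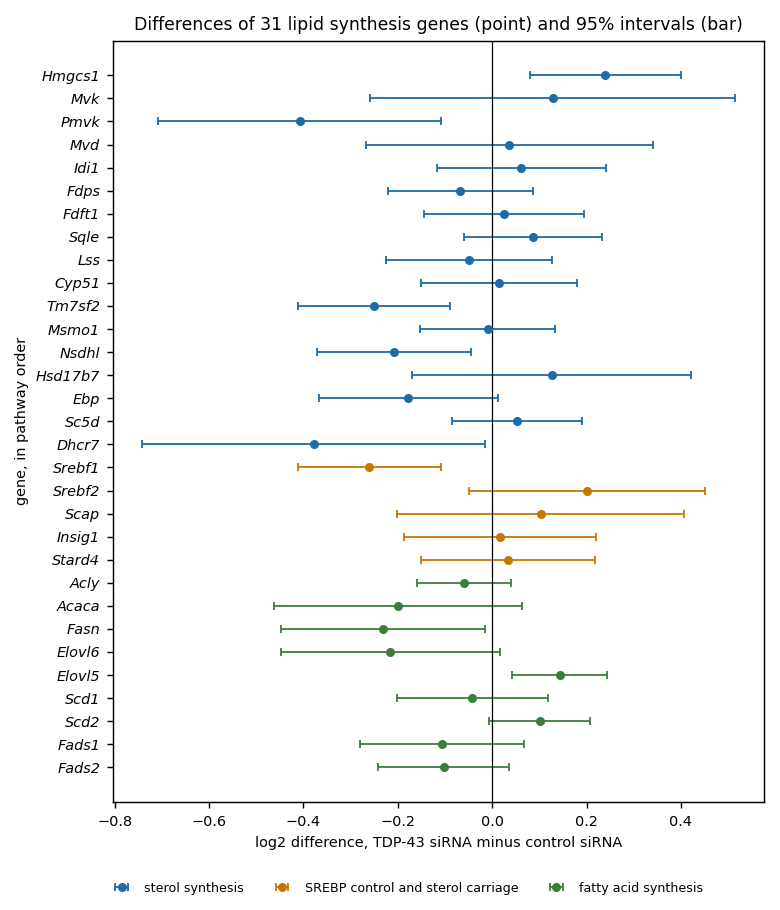
The plot gives, for each of the 31 genes from top to bottom in pathway order, the log2 difference of TDP-43 siRNA minus control siRNA (point) with its 95% confidence interval (bar), coloured by role. Points run between -0.41 for Pmvk and 0.24 for Hmgcs1, and the intervals of 23 genes hold 0.

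Sequence upstream of the genes is shown because synthesis genes of this pathway are known to be read by SREBP together with the factors NF-Y and Sp1. RefSeq promoters (GRCm38.p6, 250 bases before to 50 after a start site) were listed for 24 of the 31 genes, with 30 start sites among them. The motif TCACNCCAC, an SRE-like sequence, was found on either strand in 1 of these 30 promoters, that of Hmgcs1 (3.33%), and in 1.24% of all 32851 promoters. CCAAT, the core of the NF-Y motif, was found in 21 of 30 (70.0%), against 37.4% of all promoters. GGGCGG, the GC box, was found in 22 of 30 (73.3%), against 35.7% of all promoters. These letters are a description of the windows and do not show that a factor binds there.

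The windows below cover the 200 bases before the start site, 5′ to 3′ in the direction of the gene, for the 5 genes whose groups of arrays did not overlap and which had 1 listed start site. Capitals mark whole matches to the motifs above on either strand (ATTGG and CCGCCC are CCAAT and GGGCGG read on the other strand), and no match overlaps another. In GRCm38.p6 they lie at chr13:119690151-119690350 on the plus strand (Hmgcs1), chr9:77917165-77917364 on the plus strand (Elovl5), chr9:42264301-42264500 on the minus strand (Sc5d), chr19:6067851-6068050 on the minus strand (Tm7sf2) and chrX:72918321-72918520 on the plus strand (Nsdhl).
Hmgcs1: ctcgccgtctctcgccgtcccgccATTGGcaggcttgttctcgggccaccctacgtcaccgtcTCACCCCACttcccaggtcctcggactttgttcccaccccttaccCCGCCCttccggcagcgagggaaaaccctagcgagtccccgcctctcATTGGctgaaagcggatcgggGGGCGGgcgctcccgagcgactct
Elovl5: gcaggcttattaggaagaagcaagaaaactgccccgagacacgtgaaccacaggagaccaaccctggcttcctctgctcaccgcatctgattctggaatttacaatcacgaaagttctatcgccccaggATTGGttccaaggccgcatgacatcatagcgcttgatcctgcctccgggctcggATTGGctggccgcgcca
Sc5d: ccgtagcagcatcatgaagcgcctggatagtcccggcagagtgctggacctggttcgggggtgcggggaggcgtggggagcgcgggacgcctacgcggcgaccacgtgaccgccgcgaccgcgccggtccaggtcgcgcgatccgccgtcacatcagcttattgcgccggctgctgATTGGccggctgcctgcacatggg
Tm7sf2: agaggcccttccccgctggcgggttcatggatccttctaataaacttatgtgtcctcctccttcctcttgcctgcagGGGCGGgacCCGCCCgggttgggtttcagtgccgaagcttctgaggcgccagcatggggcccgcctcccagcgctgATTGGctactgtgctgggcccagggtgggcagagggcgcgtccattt
Nsdhl: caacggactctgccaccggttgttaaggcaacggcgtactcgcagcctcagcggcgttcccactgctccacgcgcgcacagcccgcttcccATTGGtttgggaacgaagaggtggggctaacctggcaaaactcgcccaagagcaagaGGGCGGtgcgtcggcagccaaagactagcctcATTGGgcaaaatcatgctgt

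Hmgcs1, the HMG-CoA synthase that feeds the mevalonate pathway and a classical SREBP target, had signals of 3569, 3405 and 3869 in TDP-43 siRNA arrays, against 3193, 3149 and 2834 in control siRNA arrays. All TDP-43 siRNA arrays were above all control arrays. The log2 difference was 0.24 (SE 0.07, limma adjusted p = 0.189), a ratio of 1.18 that did not pass. Leaving out any 1 array kept it between 0.19, without control replicate 3, and 0.28. Without both arrays numbered 3 it was 0.14. The 3 other probe sets of Hmgcs1 past the filter read the same way. They differed by 0.26, 0.20 and 0.26, the groups did not overlap on any of them, and their limma adjusted p over all probe sets lay between 0.184 and 0.394. The 4 probe sets read 1 transcript on the same arrays and are no independent replicates. Its promoter window is the one with the SRE-like match, whose first base lies 137 bases before the start site, at position -137.

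Downstream in the mevalonate steps the picture was mixed. Pmvk, the phosphomevalonate kinase, had signals of 753, 809 and 761 in TDP-43 siRNA arrays, against 1253, 1070 and 817 in control siRNA arrays. The TDP-43 siRNA arrays kept close together while the control arrays spread widely, with control replicate 3 just above the highest TDP-43 siRNA array. The difference was -0.41 (SE 0.13, limma adjusted p = 0.233) and its 95% interval ran from -0.71 to -0.11. Without control replicate 3 it was -0.57 and passed (limma adjusted p = 0.0182), and without control replicate 1 it was -0.27 and did not (limma adjusted p = 0.588). Pmvk was the 1 gene of the 31 that passed without control replicate 3, when 2% of all genes did.

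Mvk, the mevalonate kinase, had signals of 279, 216 and 298 in TDP-43 siRNA arrays, against 307, 206 and 214 in control siRNA arrays. The groups overlapped fully, and the difference of 0.13 (SE 0.17) had the widest interval of the set. Without control replicate 1 it was 0.30 and without control replicate 2 it was 0.03. Mvd, the mevalonate diphosphate decarboxylase, differed by 0.04 on its brightest probe set and by -0.03 on the second. Idi1, the isopentenyl diphosphate isomerase, differed by 0.06, and Fdps, which makes farnesyl diphosphate, by -0.07.

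The steps around squalene were among the steadiest. Sqle, the squalene epoxidase and a control point of the pathway, had signals of 3414, 3613 and 3863 in TDP-43 siRNA arrays, against 3476, 3256 and 3511 in control siRNA arrays. The groups overlapped, and the difference of 0.09 (SE 0.07, limma adjusted p = 0.639) had an interval from -0.06 to 0.23. Fdft1, the squalene synthase, differed by 0.02, Lss, which closes the ring to lanosterol, by -0.05, and Cyp51, which demethylates lanosterol, by 0.01. Msmo1, a methylsterol oxidase, differed by -0.01, the smallest size in the set. The intervals of these 5 genes lay between -0.23 and 0.23.

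In the trimming of lanosterol, values lay on both sides of 0 and no gene passed. Tm7sf2, a sterol reductase that acts just after the demethylation step, had signals of 743, 763 and 725 in TDP-43 siRNA arrays, against 897, 881 and 881 in control siRNA arrays. The groups were far apart for their spread, at 744 ± 19.0 after TDP-43 siRNA and 886 ± 9.17 with control siRNA (SD, n = 3 each). The difference was -0.25 (SE 0.07, limma adjusted p = 0.174), so it did not pass over all genes. Leaving out any 1 array kept it between -0.27 and -0.23.

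Nsdhl, a sterol dehydrogenase of the same stretch, had signals of 836, 852 and 801 in TDP-43 siRNA arrays, against 953, 998 and 932 in control siRNA arrays. The groups did not overlap, and the difference was -0.21 (SE 0.07, limma adjusted p = 0.267). Ebp, the sterol isomerase that follows, is given per array after its values were seen. It read 2321, 2386 and 2311 in TDP-43 siRNA arrays, against 2898, 2771 and 2312 in control siRNA arrays. Control replicate 3 of Ebp lay among the TDP-43 siRNA arrays, and the difference was -0.18 (SE 0.08, limma adjusted p = 0.420).

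Dhcr7, which makes cholesterol in the last step of one branch of the pathway, had signals of 576, 545 and 360 in TDP-43 siRNA arrays, against 651, 688 and 564 in control siRNA arrays. TDP-43 siRNA replicate 3 was far below the rest, and TDP-43 siRNA replicate 1 lay above control replicate 3. The difference was -0.38 (SE 0.16, limma adjusted p = 0.373), and without TDP-43 siRNA replicate 3 it was -0.17 (limma adjusted p = 0.628). Sc5d, the sterol desaturase before it, had signals of 2193, 2218 and 2175 in TDP-43 siRNA arrays, against 2173, 2159 and 2017 in control siRNA arrays. Its groups were apart by a narrow margin, since control replicate 1 lay just under TDP-43 siRNA replicate 3, and the difference was 0.05 (SE 0.06, limma adjusted p = 0.777). Hsd17b7, a ketosteroid reductase of this stretch, read 252, 324 and 246 in TDP-43 siRNA arrays, against 261, 261 and 226 in control siRNA arrays, and its 4 probe sets ran between -0.09 and 0.33. Without TDP-43 siRNA replicate 2 the difference of Hsd17b7, 0.13, was 0.0049.

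**Figure D2:**
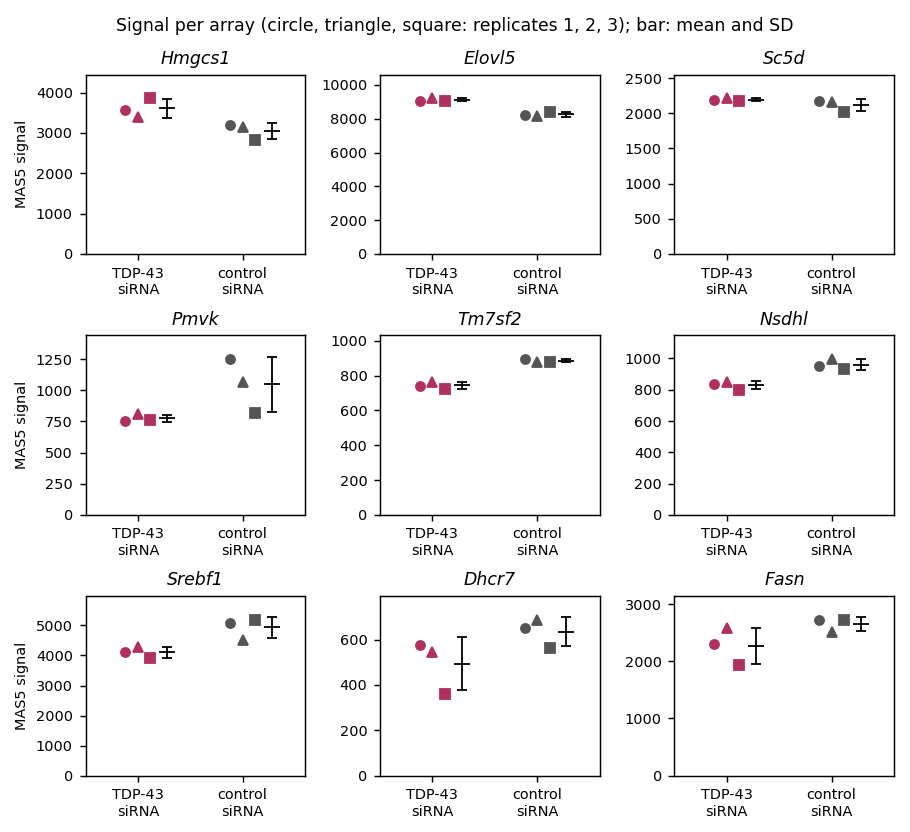
Each panel plots the MAS5 signal of 1 gene on a linear axis from 0, with TDP-43 siRNA arrays left and control siRNA arrays right, markers for replicates 1, 2 and 3, and bars for the mean and SD. Hmgcs1 at 3405 to 3869 lies above its control arrays at 2834 to 3193, while the single low array of Dhcr7 at 360 and the wide control arrays of Pmvk are visible.

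The control genes of the pathway did not pass either. Srebf1, which encodes SREBP1, had signals of 4110, 4296 and 3927 in TDP-43 siRNA arrays, against 5085, 4517 and 5191 in control siRNA arrays. All TDP-43 siRNA arrays were below all control arrays. The difference was -0.26 (SE 0.07, limma adjusted p = 0.137), with a 95% interval from -0.41 to -0.11. With 1 probe set its isoforms were not told apart. Leaving out any 1 array kept it between -0.32 and -0.22.

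Srebf2, which encodes SREBP2, had signals of 654, 605 and 578 in TDP-43 siRNA arrays, against 562, 590 and 450 in control siRNA arrays. The groups overlapped, with control replicate 3 the lowest array. The difference was 0.20 (SE 0.11, limma adjusted p = 0.502), and without control replicate 3 it was 0.08. The second probe set of Srebf2 differed by 0.14.

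Scap, the escort protein of both factors, had signals of 1554, 1053 and 1402 in TDP-43 siRNA arrays, against 1167, 1390 and 1141 in control siRNA arrays. The lowest of the 6 values was a TDP-43 siRNA array, and so was the highest. Its difference was 0.10 (SE 0.14, limma adjusted p = 0.816). Insig1, the sterol-dependent brake and itself an SREBP target, had signals of 3278, 3273 and 2618 in TDP-43 siRNA arrays, against 3076, 2836 and 3113 in control siRNA arrays. TDP-43 siRNA replicate 3 was the lowest and the other TDP-43 siRNA arrays were the highest, which gave a difference of 0.02 (SE 0.09, limma adjusted p = 0.964). Stard4, a carrier of cholesterol between membranes and also an SREBP2 target, differed by 0.03, with an interval from -0.15 to 0.22.

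Genes that make and modify fatty acids lay slightly lower in most cases, 7 of 9 below 0 with a median of -0.10, beside 45% of all genes below 0. Acly, the ATP citrate lyase that supplies cytosolic acetyl-CoA, had signals of 16043, 17296 and 16414 in TDP-43 siRNA arrays, against 16946, 17453 and 17440 in control siRNA arrays. The groups overlapped, and the difference of -0.06 (SE 0.04, limma adjusted p = 0.639) had an interval from -0.16 to 0.04. Acaca, the acetyl-CoA carboxylase of the committed step, had signals of 601, 603 and 553 in TDP-43 siRNA arrays, against 555, 730 and 753 in control siRNA arrays. Control replicate 1 lay among the TDP-43 siRNA arrays, and the difference was -0.20 (SE 0.12, limma adjusted p = 0.526). It was -0.34 without control replicate 1 and -0.12 without control replicate 3.

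Fasn, the fatty acid synthase that makes palmitate, had signals of 2296, 2575 and 1942 in TDP-43 siRNA arrays, against 2724, 2511 and 2727 in control siRNA arrays. TDP-43 siRNA replicate 2 lay above the lowest control array, and replicate 3 was the lowest of all. The difference was -0.23 (SE 0.10, limma adjusted p = 0.362), and without TDP-43 siRNA replicate 3 it was -0.12. Elovl6, which elongates palmitate, had signals of 935, 869 and 765 in TDP-43 siRNA arrays, against 1119, 968 and 904 in control siRNA arrays. Only TDP-43 siRNA replicate 1 reached into the control range, and the difference was -0.22 (SE 0.10, limma adjusted p = 0.422). It was -0.13 without control replicate 1 and -0.14 without TDP-43 siRNA replicate 3.

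The fatty acid genes above 0 were Elovl5 and Scd2, while the elongase Elovl6 and the desaturase Scd1 lay below 0. Elovl5, which elongates polyunsaturated fatty acids, had signals of 9067, 9229 and 9056 in TDP-43 siRNA arrays, against 8195, 8155 and 8419 in control siRNA arrays. The groups did not overlap, and the difference was 0.14 (SE 0.05, limma adjusted p = 0.213). On its second probe set they did overlap, at a difference of 0.09.

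Scd2, a stearoyl-CoA desaturase, had signals of 16790, 18300 and 17286 in TDP-43 siRNA arrays, against 15857, 16166 and 16800 in control siRNA arrays. The lowest TDP-43 siRNA array was just under the highest control array, and the difference was 0.10 (SE 0.05, limma adjusted p = 0.420). Its paralogue Scd1 had signals of 3029, 2894 and 2617 in TDP-43 siRNA arrays, against 3076, 2807 and 2899 in control siRNA arrays, with a difference of -0.04 (SE 0.07, limma adjusted p = 0.864). Whether probes of the pair read each other's transcript was not tested. Fads1 and Fads2, the desaturases that make long polyunsaturated fatty acids, differed by -0.11 and -0.10, and their arrays overlapped.

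Several genes were read by more than 1 probe set, which shows how far a gene's value depends on the probes. Of the 31 genes 19 had at least 1 further probe set past the filter, 31 further ones in all. Of these, 23 had the sign of the gene's brightest probe set and 8 the opposite sign. All probe sets shared a sign in 13 of the 19 genes, among them Hmgcs1, Srebf2, Acaca, Elovl5, Elovl6 and Scd2. They differed in sign in Mvd, Fdft1, Lss, Cyp51, Hsd17b7 and Stard4, whose brightest probe sets lay between -0.05 and 0.13. No probe set of the 31 genes passed over the 23433 tested.

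**Figure D3:**
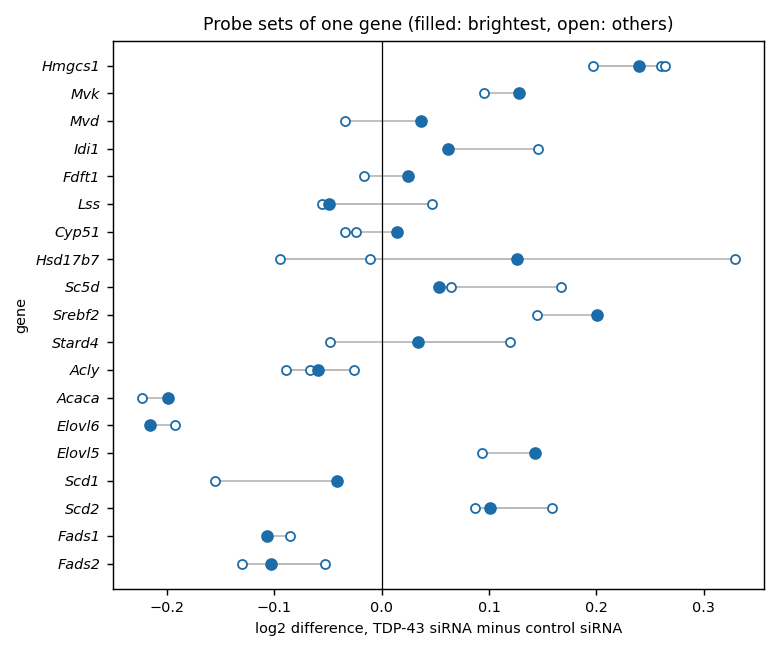
The plot gives, for the 19 genes with more than 1 probe set past the filter, the log2 difference of TDP-43 siRNA minus control siRNA of the brightest probe set (filled) and of the others (open), joined by a line. The 4 probe sets of Hmgcs1 lie between 0.20 and 0.26, and those of Hsd17b7 spread between -0.09 and 0.33.

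The mean difference between the groups over the 31 genes was -0.0452. The array means over these genes had an SD between replicates of 0.0433, averaged over both groups. For each array the deviation of each gene from its own mean over the 6 arrays was averaged over the genes. Over all 31 genes it was -0.0042, -0.0048 and -0.0588 in TDP-43 siRNA arrays, against 0.0802, 0.0174 and -0.0298 in control siRNA arrays. Over the 17 sterol synthesis genes this deviation was -0.03, -0.02 and -0.02 in TDP-43 siRNA arrays, against 0.12, 0.02 and -0.07 in control siRNA arrays. Control replicates 1 and 3 thus enclosed all TDP-43 siRNA arrays. Over the 9 fatty acid synthesis genes it was -0.03, 0.03 and -0.12 in TDP-43 siRNA arrays, against 0.04, 0.01 and 0.07 in control siRNA arrays, and TDP-43 siRNA replicate 3 stood lowest. TDP-43 siRNA replicate 3 held the lowest value of 13 of the 31 genes, and control replicate 1 the highest value of 12. These counts were not made over all genes, so they are not read as particular to the 31. Over all genes tested the same averages lay between -0.04 and 0.03. What set these arrays apart was not tested.

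**Figure D4:**
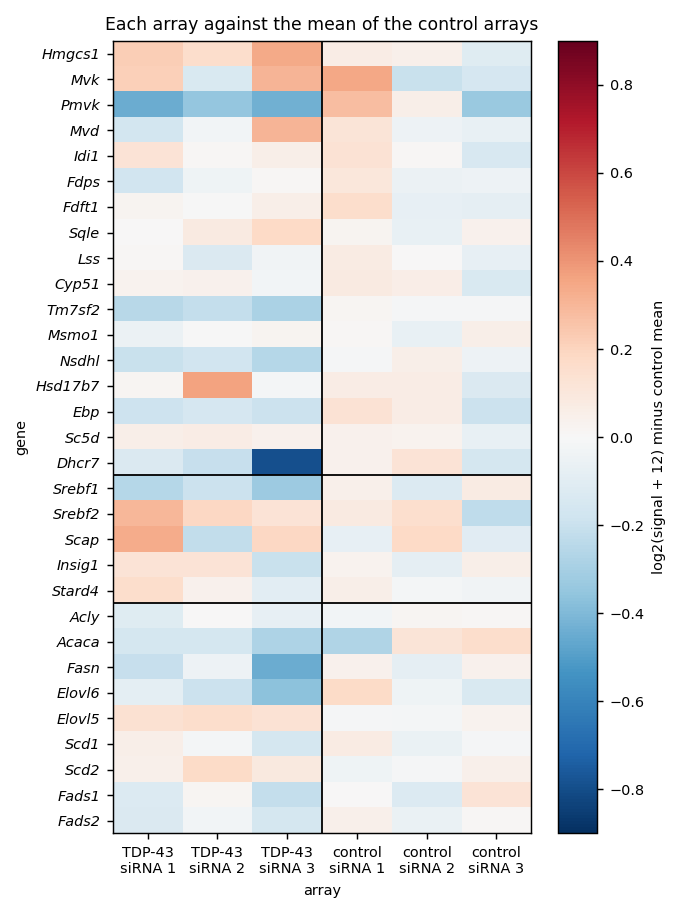
Rows are the 31 genes in pathway order and columns the arrays, TDP-43 siRNA left and control siRNA right. Colour is log2(signal + 12) minus the mean of the 3 control siRNA arrays (red higher, blue lower). Pmvk, Tm7sf2, Nsdhl and Srebf1 are blue in all 3 TDP-43 siRNA columns and Hmgcs1 and Elovl5 red, while Dhcr7 and Fasn are lowest in TDP-43 siRNA replicate 3.

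Other lipid genes were read from 6 further lists, and none of them passed in the fit without the replicate number as a block. Of 15 other sterol and isoprenoid enzymes 8 were tested. Acat1, the mitochondrial thiolase, was at -0.12 (SE 0.05, limma adjusted p = 0.287), and Dhdds, of dolichol synthesis, at -0.11. Of 10 other genes of the SREBP machinery 9 were tested. Erlin2, which takes part in degrading proteins of the endoplasmic reticulum, was at 0.31 (SE 0.12, limma adjusted p = 0.304), and Vcp, the segregase of that degradation, at -0.12.

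Of 18 genes of sterol uptake, transport and efflux 14 were tested. Vldlr, a receptor for triglyceride-rich lipoproteins, had signals of 3493, 3596 and 3905 in TDP-43 siRNA arrays, against 2312, 2413 and 3156 in control siRNA arrays. All TDP-43 siRNA arrays were above all control arrays, with control replicate 3 the nearest. The difference was 0.49 (SE 0.11, limma adjusted p = 0.0865). It was 0.63 and passed without control replicate 3 (limma adjusted p = 0.00297), and lay between 0.41 and 0.52 without any 1 of the other arrays, when it did not pass. With the replicate number as a block it passed on all 6 arrays (limma adjusted p = 0.0212). Scarb1, the receptor for high-density lipoprotein, was at 0.23 (SE 0.09, limma adjusted p = 0.336).

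Of 29 other genes of fatty acid synthesis and activation 24 were tested. Acsl5, an acyl-CoA synthetase, was at -0.22 (SE 0.07, limma adjusted p = 0.186), and Mcat, of mitochondrial fatty acid synthesis, at 0.29 (SE 0.09, limma adjusted p = 0.217). Of 20 genes of fatty acid oxidation 18 were tested, with the carnitine palmitoyltransferase Cpt2 at -0.22 and the dehydrogenase Hadh at 0.15. Of 14 genes of glycerolipid synthesis and lipid droplets 13 were tested, with the acyltransferase Agpat2 at 0.36 and the phosphatidate phosphatase Lpin2 at 0.17. The medians of these 6 lists lay between -0.03 and 0.08.

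Markers of other lipid-making cells were low on these arrays, where the filter bound was a mean of 41.5 signal units. Of 6 hepatocyte and adipocyte markers 2 were past it, and both were lower after TDP-43 siRNA with groups that did not overlap. That held for 8.32% of all genes tested. Alb, serum albumin, read 91.6, 100.0 and 84.9 in TDP-43 siRNA arrays, against 169, 165 and 136 in control siRNA arrays (limma adjusted p = 0.0919). Apob, of lipoprotein particles, read 31.9, 42.1 and 30.3 in TDP-43 siRNA arrays, against 55.2, 55.5 and 71.0 in control siRNA arrays (limma adjusted p = 0.312). The TDP-43 siRNA mean of Apob, 34.8, lay under the bound, and its control siRNA mean, 60.6, above it. Apob was thus past the filter through its control arrays, and nothing is read from its direction. Apoa1, Fabp4, Adipoq and Lep were below the bound. The summed signal of the 6 markers ran between 157 and 234 in TDP-43 siRNA arrays, against 280 to 318 in control siRNA arrays, and its part in the results above was not tested.

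Of the markers of other islet and pancreas cells none passed. Of 10 genes that mark the other hormone cells of the islet 6 were past the filter. Their list summed to between 29574 and 32415 in TDP-43 siRNA arrays, against 32113 to 34460 in control siRNA arrays. Sst, somatostatin, read 97.3, 43.2 and 46.7 in TDP-43 siRNA arrays, against 9.9, 42.1 and 23.3 in control siRNA arrays, with groups apart (limma adjusted p = 0.320). Its mean over the 6 arrays, 43.8, was near the bound of 41.5. Sst was past the filter through its TDP-43 siRNA arrays (mean 62.4, against 25.1 with control siRNA), so nothing is read from its direction. In all, 2 of the 6 past the filter lay above 0 and 4 below. Of 10 acinar and duct cell markers 4 were past it, and their list summed to 5294 to 6437 in TDP-43 siRNA arrays, against 5830 to 6532 in control siRNA arrays. The carbonic anhydrase Car2 was at -0.76 with groups apart (limma adjusted p = 0.374), while 2 of the 4 past the filter lay above 0. Of 9 fibroblast, endothelial and immune markers 5 were past it, and their list summed to 320 to 406 in TDP-43 siRNA arrays, against 326 to 482 in control siRNA arrays. The collagen gene Col1a2 was at -0.63 with groups apart (limma adjusted p = 0.312), while 2 of the 5 past the filter lay above 0. Among the beta cell markers the zinc transporter Slc30a8 was at 0.25 with groups apart (limma adjusted p = 0.119), while 5 of the 8 lay below 0. Their part in the results above was not tested either.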

How the data were processed

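Total RNA of MIN6 cells was labelled as biotinylated cRNA and read on GeneChip 3′ expression arrays, 3 per group. Deposited intensities are on a linear scale and were made with MAS5, as the submitters' processing notes name it; no source used here gives its version. There are 45101 probe sets, and all arrays share 1 mean once the highest and lowest 2% of values are set aside.

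Gene names come from GEO's platform annotation, in which 34945 probe sets had 1 gene, 932 had several and 9160 had none listed. Of these 34945, 34741 were matched through Entrez numbers to RefSeq (GRCm38.p6), whose symbol was then used, changed or not. A pseudocount of 12 (the rounded 20th percentile) was added before log2. Probe sets in the lowest 40% by mean signal were dropped, and the brightest single-gene probe set stood for a gene, which gave 12619 genes. Suffixes s_at and x_at mark probes that may bind several transcripts.

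The main test was limma 3.58.1 in R 4.3.3 (lmFit, then eBayes with an intensity trend; two-sided), and p-values were adjusted by Benjamini-Hochberg over all 12619 genes, with a threshold of 0.05. Differences are TDP-43 siRNA minus control siRNA on the scale log2(signal + 12), with the standard error of the fit, and intervals are 95%. The fit was tested on simulated data. Promoters are those of RefSeq, searched on both strands. Figures used matplotlib 3.10.9.

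The genes and gene lists were chosen with earlier results of these data known. Named with values in every array are genes past the threshold or with groups apart, the 6 largest increases and decreases among the 31, and 12 control points of the pathway; of each other pathway list, the 2 genes with the smallest p. Of the marker lists, the gene with the smallest p is named, and Apob, a choice made after values were seen. Alternatives were the pseudocount, the filter, the scaling, the variance model, the mean of probe sets, the replicate number as a block and each array left out; leaving out both arrays numbered 3 was added after seeing the data.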

Additional observations from a re-analysis of the deposited data

How the results depend on the processing

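The count among the 31 genes was also 0 with a pseudocount of 1 or 42, with no filter or a 60% filter, and with quantile normalization or median centring. It was 0 as well without the intensity trend, with the mean of probe sets and with the replicate block. In these runs between 0.0951% and 1.19% of all genes passed. At such shares few or none of 31 genes would pass anyway, so nothing is read from the 0. The count among the 31 genes was between 0 and 1 when 1 array was left out, the 1 being Pmvk without control replicate 3. It was 1 (Pmvk, at -0.56) when both arrays numbered 3 were left out. The count over all genes, 94, was 51 with no filter, 12 without the intensity trend, 61 with the mean of probe sets, 123 with the replicate block, 214 without both arrays numbered 3, and between 31 and 253 when 1 array was left out. Genes of the 31 with groups apart numbered 7. On all 6 arrays they numbered 6 with median centring, where 18% of all genes were apart. With the mean of probe sets they numbered 8, where 17.8% of all genes were. They numbered between 9 and 12 with 1 array left out and 14 without both arrays numbered 3, where fewer arrays make a separation easier: it then held for 25% to 34.9% and for 46.2% of all genes. The median over the 31 genes lay between -0.0471 and -0.0044 in every alternative run. Differences near 0 turned sign. With 1 array left out Scap ran between -0.0149 and 0.26, Insig1 between -0.0381 and 0.12, and Scd1 between -0.0878 and 0.0172. Without both arrays numbered 3, Mvk was at -0.0361 and Scd1 at 0.0107. Others kept their sign but moved: Sqle ran between 0.0413 and 0.1302, Sc5d between 0.0192 and 0.0726, Acly between -0.0904 and -0.0362 and Scd2 between 0.0664 and 0.1285. The cause was not tested. Nothing in the labels says that the replicate numbers pair arrays, so they were not taken as pairs. Same-numbered arrays deviated from their group means with correlations of -0.123, -0.138 and 0.239 across genes. TDP-43 siRNA replicate 1 with control replicate 2 stood at 0.296, and TDP-43 siRNA replicate 2 with control replicate 1 at 0.226. The other differently numbered arrays lay between -0.177 and -0.078. Whether arrays pair under another matching was not tested. Vldlr also passed with the replicate block (limma adjusted p = 0.0212), and Tardbp did not pass without the intensity trend (limma adjusted p = 0.0608).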
